A study of Schizosaccharomyces pombe with 5 samples.

Results

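The RNA recovered with Slr1p from fission yeast (Schizosaccharomyces pombe) was set against total RNA input across every gene counted. Of the 5 libraries of the series, 4 entered the comparison by their titles: 2 from immunoprecipitations with the anti-Slr1p antibody AB2756 and 2 from input. The fifth, a single non-immune rabbit IgG immunoprecipitation, served as side information. All cells were wild type (WT, strain yAS99), grown in YES, a rich medium, at 32 °C and fixed with a formaldehyde cross-link. Immunoprecipitated RNA was freed by proteinase K and heat and then extracted with phenol and chloroform, whereas input RNA was extracted with hot phenol and had no antibody step, so the groups differ in extraction as well as in the immunoprecipitation. The titles call the libraries of each group biological replicates, and nothing in the labels ties an input library to an immunoprecipitation. The antibody was not tested here in cells that lack Slr1p.

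Slr1p belongs to the La-related proteins, a family that shares the La motif, an RNA-binding fold, and it is the fission yeast homolog of LARP1. In animals LARP1 binds the cap and the first bases of mRNAs that begin with a terminal oligopyrimidine (TOP) tract. Most of these mRNAs encode ribosomal proteins and translation factors, and LARP1 links their stability and translation to TOR, the kinase that couples growth to nutrients.

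Each file held 6727 genes, of which 6376 passed the filter on low counts. Gene counts totalled 64236988 and 62802923 in the input libraries, 63392249 and 65859940 in the Slr1p libraries and 12882920 in IgG. The typical gene differed by 0.204 on the log2 scale between the input libraries and by 0.101 between the Slr1p libraries (medians of the absolute difference). Levels are CPM, gene counts scaled to a common library total after TMM scaling, a correction for library composition. They are shares of a library and give neither the amount of RNA brought down nor a level per molecule. No molecular identifiers were used, so reads may be PCR copies of 1 another.

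Most genes differed between the groups. By edgeR's quasi-likelihood test with Benjamini-Hochberg adjustment under 0.05, 2230 of 6376 genes (35.0%) were higher after Slr1p immunoprecipitation and 2183 (34.2%) were lower, 69.2% in all. Changes of 1 or more on the log2 scale were found for 804 higher genes (12.6%) and 1051 lower genes (16.5%). In 2796 genes (43.9%) both Slr1p libraries lay above both input libraries, and in 2632 (41.3%) both lay below. The median log2 fold change over all genes tested was 0.03. These shares are the background against which the counts below are read.

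**Figure D1:**
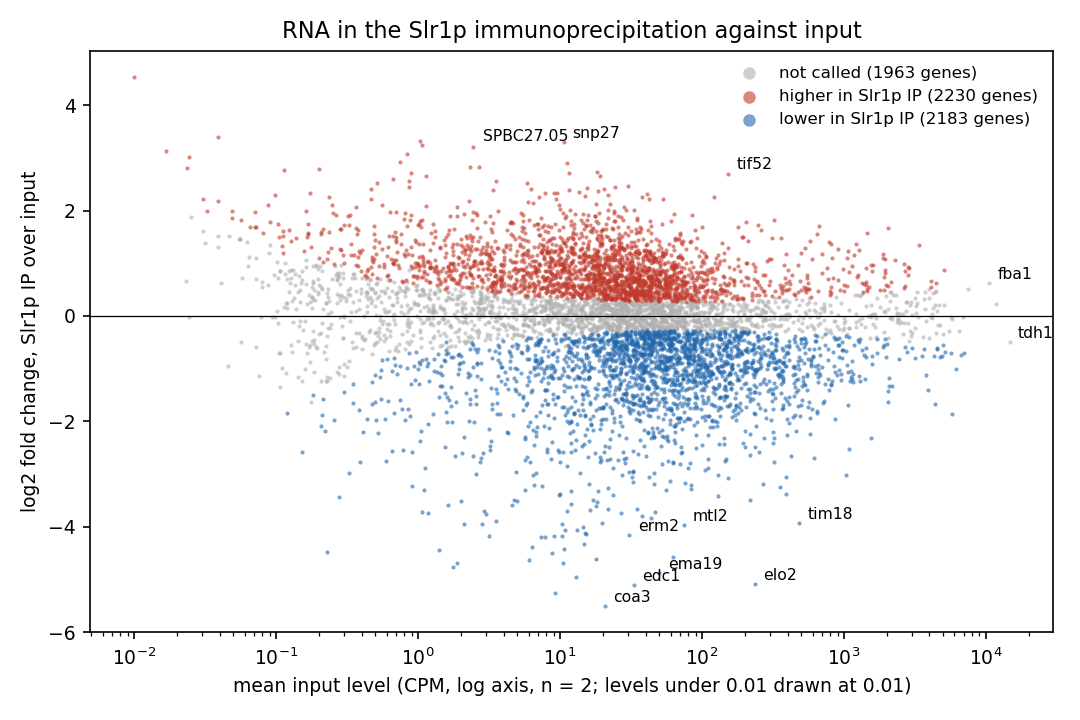
Each point is 1 of the 6376 genes tested, placed by its mean level in the 2 input libraries (CPM, log axis) and by its log2 fold change between Slr1p immunoprecipitation and input. The 2230 genes called higher and 2183 called lower spread over the whole range of input levels, and the lower arm reaches further, to -5.50 for coa3 against 3.30 for snp27 among genes of at least 10 CPM.

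The mRNAs that rose most included those of nuclear and ribosome-making proteins and of a linker of the gamma-tubulin complex. The gene snp27, which encodes a subunit of the U4/U6.U5 particle of the spliceosome, stood at 9.27 and 12.0 CPM in input, 103 and 107 CPM in the Slr1p libraries and 123 CPM in IgG. That is a 9.84-fold rise (log2 fold change 3.30, SE 0.14, edgeR adjusted p = 7.06e-11), and the 2 groups did not overlap. The uncharacterized gene SPBC27.05 rose by a like factor, from 2.27 and 2.56 CPM to 21.1 and 23.6 CPM (log2 fold change 3.20, SE 0.16). The nucleoporin gene nup211, a large coiled-coil protein of the nuclear basket, rose from 8.85 and 13.6 CPM to 87.3 and 79.9 CPM (2.90, SE 0.17), and in IgG it stood at 424 CPM. The gene of Mto1, which links the gamma-tubulin complex to the sites where microtubules start, rose by 2.72.

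Genes of translation and ribosome synthesis followed among the 10 largest rises. The initiation factor gene tif52 went from 131 and 173 CPM to 997 and 972 CPM (log2 fold change 2.70, SE 0.20, edgeR adjusted p = 1.09e-08). Its IgG level was 4637 CPM, far above all 4 other libraries. The ribosome biogenesis genes cgr1 and kri1 rose by 2.66 and 2.46, and rpa34, for a subunit of RNA polymerase I, rose by 2.44. The remaining 2 were SPAC607.02c (2.74), which is uncharacterized, and SPAC6F6.19 (2.52), annotated as a G-patch RNA-binding protein. Of these 10 genes, 7 are covered over at least 50% of their length by an annotated antisense gene, against 0 of the 10 largest falls and 21.8% of all 4980 mRNAs tested. The library kit keeps strand, but the strand setting of the counting is not given in the sources used here, so reads of a gene and its antisense partner cannot be told apart with certainty.

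The largest falls were deeper than the largest rises. The mRNA of coa3, an assembly factor of cytochrome c oxidase, stood at 22.8 and 18.8 CPM in input, at 0.534 and 0.374 CPM in the Slr1p libraries and at 8.35 CPM in IgG. It was 45.4-fold lower (log2 fold change -5.50, SE 0.22, edgeR adjusted p = 3.59e-11). The mRNA of edc1 fell 34.6-fold, from 30.5 and 36.1 CPM to 0.945 and 0.976 CPM, whereas its IgG level was 39.3 CPM. That of elo2, of the GNS1/SUR4 family of fatty acid elongases, fell 34.2-fold, from 242 and 227 CPM to 7.90 and 5.77 CPM.

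The other 7 largest falls lay between -4.88 and -3.71. They were ema19, erm2 (annotated as an aminopeptidase), mtl2 (a sensor of cell wall stress), tim18 (a subunit of the TIM22 import complex of the inner mitochondrial membrane), SPCC191.03c, pef1 (a cyclin-dependent kinase) and cid13 (a cytoplasmic poly(A) polymerase). The falls were not shared evenly with the IgG library: erm2 stood at 29.8 and 31.7 CPM in input and 31.5 CPM in IgG but at 1.65 and 1.8 CPM in the Slr1p libraries. The gene cid13 stood at 48.8 and 44.4 CPM in input, 40 CPM in IgG, and 3.63 and 3.48 CPM in the Slr1p libraries. By contrast tim18 was low in IgG too, at 46.4 CPM against 535 and 426 CPM in input and 34.1 and 29.1 CPM in the Slr1p libraries. In all 20 genes both Slr1p libraries lay on 1 side of both input libraries, which the rule that chose them required.

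**Figure D2:**
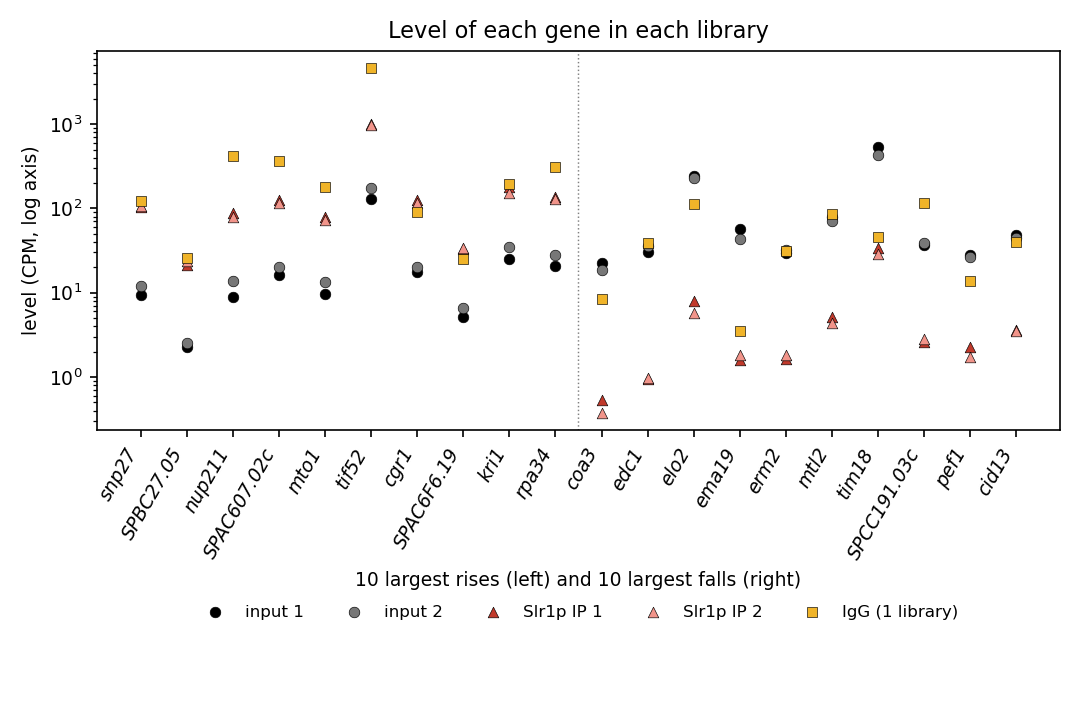
Level of the 10 largest rises (left of the dotted line) and the 10 largest falls (right) in each of the 5 libraries, in CPM on a log axis. The 2 Slr1p libraries lie close together for each gene and apart from the 2 input libraries, while the single IgG library lies above the Slr1p libraries for several rises (tif52 at 4637 CPM, nup211 at 424 CPM) and, among the falls, ranges from above input (SPCC191.03c at 115 CPM) through near input (edc1, erm2, cid13) to near the Slr1p libraries (tim18, ema19).

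The base composition of these mRNAs differed, and stretches of their coding sequence are shown because the pattern below turns on it. Each line gives 60 coding bases from the centre of the gene's longest coding exon, in RefSeq assembly ASM294v3, written 5′ to 3′ on the coding strand, with runs of 5 or more purines in capitals. The first 4 genes had the largest rises and the last 4 the largest falls. The windows lie in snp27 (III:1588207-1588266, plus strand), SPBC27.05 (II:1569880-1569939, plus), nup211 (III:1568369-1568428, plus) and SPAC607.02c (I:2040087-2040146, minus). Those of the falls lie in coa3 (I:4942301-4942360, plus), edc1 (I:2233589-2233648, minus), elo2 (I:2811874-2811933, minus) and ema19 (I:1138812-1138871, plus).
snp27: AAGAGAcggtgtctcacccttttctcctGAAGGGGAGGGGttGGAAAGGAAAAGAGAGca
SPBC27.05: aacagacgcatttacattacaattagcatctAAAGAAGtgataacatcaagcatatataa
nup211: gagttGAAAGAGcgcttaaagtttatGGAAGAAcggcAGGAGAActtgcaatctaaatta
SPAC607.02c: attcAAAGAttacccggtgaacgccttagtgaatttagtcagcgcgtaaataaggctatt
coa3: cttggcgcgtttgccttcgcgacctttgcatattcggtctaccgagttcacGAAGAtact
edc1: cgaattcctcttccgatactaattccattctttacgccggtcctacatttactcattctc
elo2: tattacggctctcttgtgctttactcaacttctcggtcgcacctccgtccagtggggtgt
ema19: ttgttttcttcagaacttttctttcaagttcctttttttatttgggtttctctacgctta
In these windows pyrimidines (C and T) made up between 35.0% and 46.7% of the bases of the rising genes and between 60% and 75% of those of the falling genes. Over the whole annotated mRNA the 10 largest rises held 33.7% to 49.2% pyrimidines and the 10 largest falls 47.7% to 59.7%.

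Across all protein-coding genes, mRNAs rich in purines were over-represented after Slr1p immunoprecipitation and mRNAs rich in pyrimidines were under-represented. The 4980 tested mRNAs were put into 5 groups of 996 by the pyrimidine content of the annotated transcript. In the group of lowest content (33.7% to 48.1%) the median log2 fold change was 0.80, with 73.9% of genes called higher and 7.43% lower. The medians of the next 3 groups were 0.27, -0.15 and -0.51. In the group of highest content (53.6% to 74.2%) the median was -0.76, with 11.1% called higher and 67.0% lower. That is 111 higher genes, and without Slr1p replicate 2 there were 73. Over all 4980 mRNAs 33.3% were called higher and 38.9% lower.

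Spearman's correlation between pyrimidine content and log2 fold change was -0.58 across these 4980 mRNAs, which share the same libraries and are not independent replicates. Of the single bases, T had a correlation of -0.51 and C of -0.29, while A had 0.48 and G 0.26. GC content had a correlation of -0.03 and transcript length of -0.08. Among the 256 words of 4 bases, AAGA (0.41), AGAA (0.40) and AAAG (0.39) were at one end and CTTT (-0.40), TCTT (-0.38) and TTTC (-0.36) at the other, each counted as its frequency on the sense strand, where the words overlap one another. Nearly every mRNA holds these words at least once, with CTTT in 99.6% and AAGA in 99.4% of them.

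The composition of the coding sequence had a larger correlation with the change than that of the annotated 5′ end. Spearman's correlation with the log2 fold change was -0.50 for the pyrimidine content of the coding sequence and -0.33 for that of the 3′ UTR (4635 mRNAs). It was -0.07 for that of the 5′ UTR (4073 mRNAs) and -0.04 for that of the first 20 bases of the transcript (4980 mRNAs). Of all mRNAs counted, 4482 have an annotated 5′ UTR, and for the others these 20 bases are coding sequence. A short stretch also gives a coarser percentage than a long one, so the sizes of these correlations are not strictly comparable. The amino acids lysine and glutamate, whose codons are made of purines alone, made up 10.1% or less of the proteins in the lowest of 5 groups and 16.4% or more in the highest. The medians in these groups were -0.68 and 0.63. Long noncoding RNAs, which have no coding sequence, showed the same order: the 5 groups of 249 or 250 by pyrimidine content had medians of 0.98, 0.63, 0.43, 0.20 and -0.17.

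**Figure D3:**
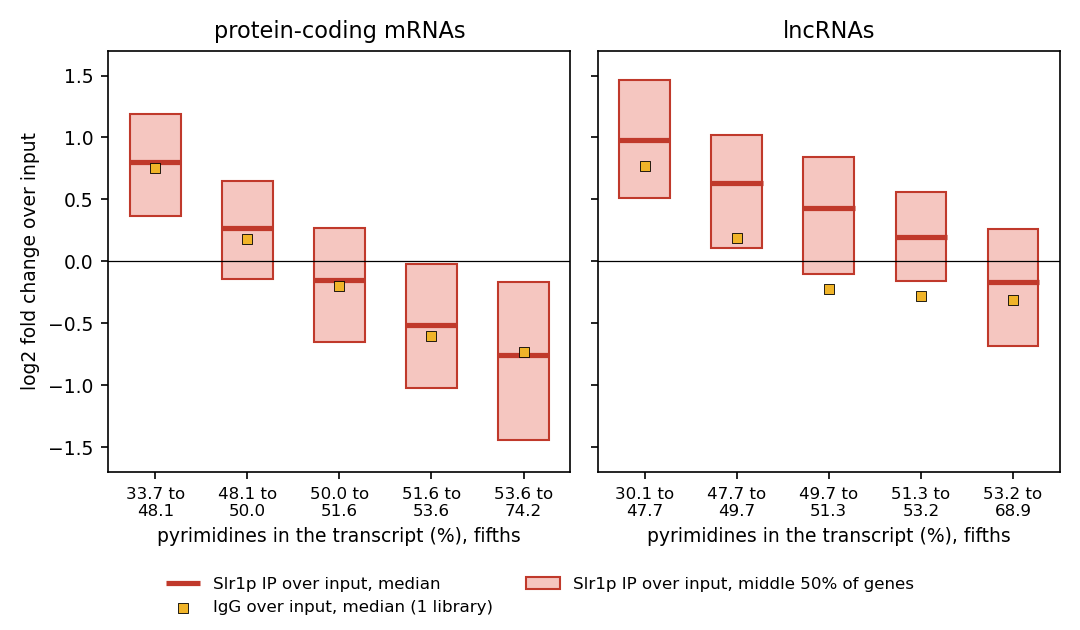
Log2 fold change over input in 5 equal groups of protein-coding mRNAs (left) and of lncRNAs (right), ordered by the percentage of pyrimidines in the annotated transcript. Boxes span the middle 50% of genes and bars mark the median of Slr1p immunoprecipitation over input, which falls from 0.80 to -0.76 in mRNAs and from 0.98 to -0.17 in lncRNAs. Squares mark the median of the single IgG library over the same input.

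The same composition also separated the input libraries from each other and IgG from input. For mRNAs of at least 10 CPM, the median log2 ratio of input replicate 1 to input replicate 2 ran from -0.30 in the group of lowest pyrimidine content (796 mRNAs) to 0.19 in the group of highest content (887 mRNAs). Spearman's correlation of this ratio with pyrimidine content was 0.66 across 4343 mRNAs, as large in size as the -0.56 to -0.68 of the 4 ratios of a Slr1p to an input library. The Slr1p libraries differed by 0.07 and -0.01 in these groups, with a correlation of -0.22. The ratio of Slr1p to input ran the same way in all 4 library pairs: in the lowest group its median was 1.06 and 1.00 against input replicate 1 and 0.76 and 0.70 against input replicate 2. In the highest group it was -0.87 and -0.86 against replicate 1, and -0.68 against replicate 2 for both Slr1p libraries.

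Fitted without input replicate 1, the medians of the groups of lowest and highest content were 0.66 and -0.67, and without input replicate 2 they were 0.95 and -0.84. The IgG library, measured against the same input libraries, had medians of 0.75, 0.18, -0.20, -0.60 and -0.73 in the 5 groups of mRNAs. The 2 comparisons share their input, so their likeness is not a separate result. IgG also followed transcript length: in 5 groups of 996 mRNAs, from shortest to longest, its medians were -0.83, -0.65, -0.30, 0.20 and 1.12. Those of Slr1p immunoprecipitation over input were 0.21, 0.01, -0.24, -0.20 and 0.01. Input and immunoprecipitated RNA were also extracted by different methods, which cannot be told apart from the immunoprecipitation in this design.

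Because this trend ran through most of the transcriptome, each gene list below is given as measured and after the trends with length, GC and pyrimidine content were removed, a setting chosen after the data had been seen. That removal moved the median of all genes from 0.03 to 0.12, and it left 1687 of the 2230 higher and 1548 of the 2183 lower calls in place. With new calls added, 2554 of 6376 genes were then higher and 1870 lower. These totals are the background for the list counts with the trends removed. In all 139 genes went from lower to higher and 52 from higher to lower. It also cut the changes of 1 or more to 510 higher and 664 lower genes. The groups of lowest and highest pyrimidine content then had medians of 0.15 and -0.02. The members of each list chosen by rule were the largest called rise, the largest called fall and the most abundant gene, and further members were named after their values had been seen.

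The 3 genes of La and La-related proteins that were matched by symbol were higher after Slr1p immunoprecipitation. The symbol slr2, also on the list, was not matched and is not analysed here. The mRNA of sla1, the La protein that binds the 3′ ends of RNA polymerase III transcripts, stood at 164 and 218 CPM in input and 551 and 525 CPM in the Slr1p libraries (log2 fold change 1.49, SE 0.15, edgeR adjusted p = 3.52e-07). The mRNA of pof8, a La-related subunit of telomerase, rose by 0.69 (SE 0.15). Slr1p's own mRNA, slr1, stood at 79.4 and 99.5 CPM in input, 130 and 134 CPM in the Slr1p libraries and 124 CPM in IgG. It rose by 0.56 (SE 0.13, edgeR adjusted p = 0.00118). The list's median was 0.69 as measured and 0.55 with the trends removed, with all 3 called higher in both.

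Ribosome biogenesis factors were higher as a group. Of 59 genes 44 (74.6%) were called higher and 3 lower, with a median of 0.62, and the range was -0.85 to 2.28. The kinase gene rio1, which acts late in the making of the small subunit, went from 13.3 and 16.5 CPM to 79.4 and 65.1 CPM (log2 fold change 2.28, SE 0.14, edgeR adjusted p = 2.11e-09). Further large rises were those of rrp7 (2.13), mdn1 (2.06), the AAA-type ATPase that strips factors from the large subunit, nop14 (1.94) and mak16 (1.79). The most abundant member, fib1 for the rRNA methyltransferase fibrillarin, stood at 1021 and 1027 CPM in input and 955 and 961 CPM in the Slr1p libraries (-0.10, edgeR adjusted p = 0.601). The largest fall was nip7, at 166 and 130 CPM against 84.1 and 80.7 CPM (-0.85). With the trends removed the median was 0.37, and 40 genes were higher and 4 lower. The IgG library had a median of 1.16 over the same input. Leaving out each library in turn gave 32 to 47 higher genes, and 1 lower gene without either Slr1p library.

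The subunits of RNA polymerases I, II and III went both ways. Of 30 genes 14 (46.7%) were higher and 8 (26.7%) lower, beside 35.0% and 34.2% of all genes. The median was 0.27 as measured and 0.14 with the trends removed, when 13 were higher and 9 lower. The rises were led by rpa34 of polymerase I (2.44), rpc10 (2.26) and rpc37 (1.86), the latter of polymerase III. The falls were led by rpb9 of polymerase II, at 17.9 and 14.9 CPM in input and 3.96 and 3.85 CPM in the Slr1p libraries (-2.07), and by rpa12 (-1.52), rpb11 (-1.40) and rpb3 (-1.39). For each of these 7 genes the 2 groups did not overlap.

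Translation initiation factors also went both ways, with 14 of 27 (51.9%) higher and 8 (29.6%) lower, beside 35.0% and 34.2% of all genes. The median was 0.32 as measured and 0.20 with the trends removed, when 13 were higher and 9 lower. After tif52 the largest rises were tif471 (1.63), for the scaffold eIF4G, tif1102 (1.53), tif5 (1.49) and tif213 (1.48), for a subunit of eIF2. The largest fall was tif1, for the helicase eIF4A, at 6617 and 4995 CPM in input and 1577 and 1621 CPM in the Slr1p libraries (-1.86, SE 0.22, edgeR adjusted p = 2.32e-06). Next was tif6 (-1.65), which keeps the ribosomal subunits apart. Partners in 1 complex thus lay at opposite ends, with eIF4G higher and eIF4A lower. Without Slr1p replicate 1 the list had 9 higher and 5 lower genes, and without replicate 2 it had 8 and 5.

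Ribosomal protein mRNAs had small medians, and members differed from one another. Among 54 genes of the 40S subunit 16 (29.6%) were higher and 8 lower, with a median of 0.17, and among 83 of the 60S subunit 27 (32.5%) were higher and 9 lower, with a median of 0.21. By the main edgeR fit the shares higher were close to the 35.0% of all genes. The shares lower, 14.8% and 10.8%, were below the 34.2% of all genes. After removal of the trends 25 of the 40S genes were higher and 8 lower, and 39 of the 60S genes were higher and 14 lower. The largest rises were rpp103, a P1 protein of the stalk, from 726 and 606 CPM to 1952 and 2414 CPM (1.71, SE 0.20), and rps1002, from 622 and 669 CPM to 1749 and 2045 CPM (1.56, SE 0.18). The largest falls were rps1501, from 5467 and 4049 CPM to 2567 and 3010 CPM (-0.77, SE 0.23, edgeR adjusted p = 0.00639), and rpl2002, from 4138 and 2919 CPM to 1894 and 2268 CPM (-0.76). Neither fall was called without Slr1p replicate 1 (edgeR adjusted p = 0.132 and 0.127).

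These counts moved with the scaling, the test and single libraries. With library totals alone 24 of the 40S genes were higher and 12 lower, and 37 and 14 of the 60S genes. All 6376 genes then had 2029 higher and 1997 lower. With DESeq2 the 40S list had 22 higher and 12 lower and the 60S list 34 and 14, beside 2050 and 2127 of all genes. The 40S list had 25 higher and 3 lower genes without input replicate 1, 13 lower without input replicate 2, 0 lower without Slr1p replicate 1, and 9 higher and 3 lower without Slr1p replicate 2. The 60S list had 14 lower genes without input replicate 2, 1 lower without Slr1p replicate 1, and 15 higher and 3 lower without Slr1p replicate 2. The median of the 40S list was -0.01 without input replicate 2, so its sign rests on that library. With the trends removed the medians were 0.19 and 0.21. In the single IgG library, against the same input, the medians were -1.23 for the 40S and -1.08 for the 60S list. These mRNAs are short (median lengths 594.5 and 634 bases), and the IgG median was -0.83 over the shortest of 5 groups of all mRNAs. With 1 IgG library, neither the difference from the Slr1p libraries nor the part of length in it was tested. Many of these genes have near-identical copies, and the treatment of reads that map to several genes is not given in the sources used here.

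The elongation factor gene tef103, for EF-1 alpha, stood at 3029 and 3749 CPM in input and 7812 and 9388 CPM in the Slr1p libraries (1.34, SE 0.24). Of the 7 elongation factor genes 5 were higher and 0 lower, with a median of 0.66 (0.67 with the trends removed). The count fell to 3 without Slr1p replicate 1 and to 1 without Slr1p replicate 2.

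The starts of annotated mRNAs are shown because LARP1 in animals reads this part of a message. Each line gives the first 20 bases of the transcript in RefSeq assembly ASM294v3, with runs of 5 or more pyrimidines in capitals. The annotated start may differ from the start used in these cells. The first 4 genes rose (rpp103, tef103, slr1 and SPBC365.04c), the next 2 fell (rps1501 and rpl2002), and pyk1, for pyruvate kinase, was not called.
rpp103: atctacatactcatcacaaa
tef103: agagtctgtttcatcgaact
slr1: agtggtgaacttaggtgaac
SPBC365.04c: aaTTCTCCattatcaaattt
rps1501: gaccatcaccaactacggca
rpl2002: aacaccaattggggaaaatg
pyk1: aCCTCTaccaaccactaaac
A tract that begins by base 3 is found in SPBC365.04c and pyk1 and in none of the other 5. These 2 genes were taken from the list of mRNAs that such a tract defines, so their tracts are no result. The start of rps1002, which rose, is not among the lines. It has a run of 5 pyrimidines, but the run begins after base 3. The starts lie at III:2408307-2408326 (minus strand), II:627503-627522 (minus), I:4384395-4384414 (plus), II:2505006-2505025 (minus), III:798244-798263 (plus), I:3337731-3337750 (plus) and I:3846656-3846675 (minus), in the order of the lines.

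As measured, the mRNAs with such an annotated start were not higher as a group. Of 471 mRNAs whose annotated transcript begins a run of at least 5 pyrimidines at base 1, 2 or 3, 132 (28%) were higher and 207 (43.9%) lower, against 33.3% and 38.9% of all mRNAs. The median was -0.20 as measured, beside -0.06 for all mRNAs and 0.03 for all genes. With the trends removed it was 0.07, beside 0.12 for all genes, so its sign depends on that removal. Then 191 were higher and 162 lower, beside 2554 and 1870 of all 6376 genes. All genes include noncoding RNAs, whose medians were higher (0.41 as measured and 0.39 with the trends removed). No median of all mRNAs was taken with the trends removed. The largest rise among them was SPBC365.04c, annotated as an RNA-binding ribosome biogenesis protein, from 17.0 and 24.1 CPM to 113 and 106 CPM (2.41, SE 0.15). The most abundant, pyk1, stood at 5566 and 6022 CPM in input and at 5111 and 5987 CPM in the Slr1p libraries, so that its groups overlapped (-0.06, edgeR adjusted p = 0.826).

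Genes of the secretory pathway were lower. Of 24 genes for translocation into the endoplasmic reticulum (ER), glycosylation and early vesicle traffic, 20 (83.3%) were lower and 2 higher, against 34.2% lower among all genes. The median was -1.06, or -0.43 with the trends removed, when 16 were lower and 4 higher. The mRNA of sec62, a subunit of the translocation channel, stood at 112 and 86.9 CPM in input and 19.6 and 16.7 CPM in the Slr1p libraries (-2.45, SE 0.15, edgeR adjusted p = 1.15e-09). The channel gene sec61 fell by 1.46, and the oligosaccharyltransferase genes swp1, ost3 and stt3 had log2 fold changes of -2.18, -1.38 and -1.12. The GTPase gene arf1, the most abundant of the list, went from 1730 and 1371 CPM to 294 and 325 CPM (-2.33). The ER chaperone bip1 stood at 1076 CPM in both input libraries and 187 and 185 CPM in the Slr1p libraries (-2.53). The 2 higher genes, sec22 (0.46) and sbh1 (0.44), were not called without Slr1p replicate 1 or without replicate 2, and leaving out each library in turn gave 19 or 20 lower genes. The IgG library had a median of -2.08 for this list over the same input.

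Lipid synthesis genes were more often lower than higher. Of 30 fatty acid and sterol genes 15 were lower and 4 higher, with a median of -0.36. Beside elo2, the elongase gene elo1 (-1.76) and the ergosterol genes erg4 (-1.78), erg26 (-1.76) and erg2 (-1.52) were at the low end. The subunits of the soluble fatty acid synthase, fas2 (0.63) and fas1 (0.22, not called), and the lanosterol synthase gene erg7 (0.64) were at the high end. The list's direction did not hold after the trends were removed, when 16 were higher and 12 lower with a median of 0.25. The higher count as measured was 1 without Slr1p replicate 1 and 2 without Slr1p replicate 2.

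Proteins with hydrophobic segments were, in general, made from mRNAs that were lower after Slr1p immunoprecipitation. Among proteins with 0 such segments (windows of 19 residues with a mean Kyte-Doolittle hydropathy of at least 1.6), the 3546 mRNAs had a median of 0.08. With 1 segment the median was -0.21 (753 mRNAs), with 2 to 5 it was -0.61 (433), and with 6 or more it was -0.83 (248), when 75.4% were lower and 6.05% higher. The IgG library had medians of 0.00, -0.14, -0.62 and -0.40 in these 4 classes over the same input. Codons for hydrophobic residues are rich in T, and the part of composition in these differences was not tested. In the lowest of 3 equal groups by pyrimidine content the medians were 0.64, 0.50, 0.41 and -0.02, the last over 3 mRNAs. In the middle group they were -0.08, -0.16, -0.23 and -0.46, and in the highest group -0.55, -0.75, -0.99 and -0.91, where the last class was not the lowest.

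Long 3′ UTRs went with lower values as well. In 5 groups of 996 by annotated 3′ UTR length the medians were 0.22, 0.26, 0.05, -0.42 and -0.70, the last for UTRs of 525 bases or more. Within the group of lowest pyrimidine content, short, middle and long UTRs (3 equal groups, the longest of at least 360 bases) had medians of 0.67, 0.71 and 0.27. Within the group of highest content they had -0.29, -0.50 and -1.11, and 82.5% of the mRNAs with long UTRs were lower. Of the 10 largest falls 5 had an annotated 3′ UTR over 1000 bases, against 0 of the 10 largest rises and 8.57% of all 4980 mRNAs. Another 4 of the falls and 2 of the rises had no annotated 3′ UTR, as had 6.61% of all mRNAs, and such genes count as length 0 in the groups above. Against the same input, the IgG library had medians of 0.16, 0.14, -0.02, -0.40 and -0.26 in the 5 length groups.

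**Figure D4:**
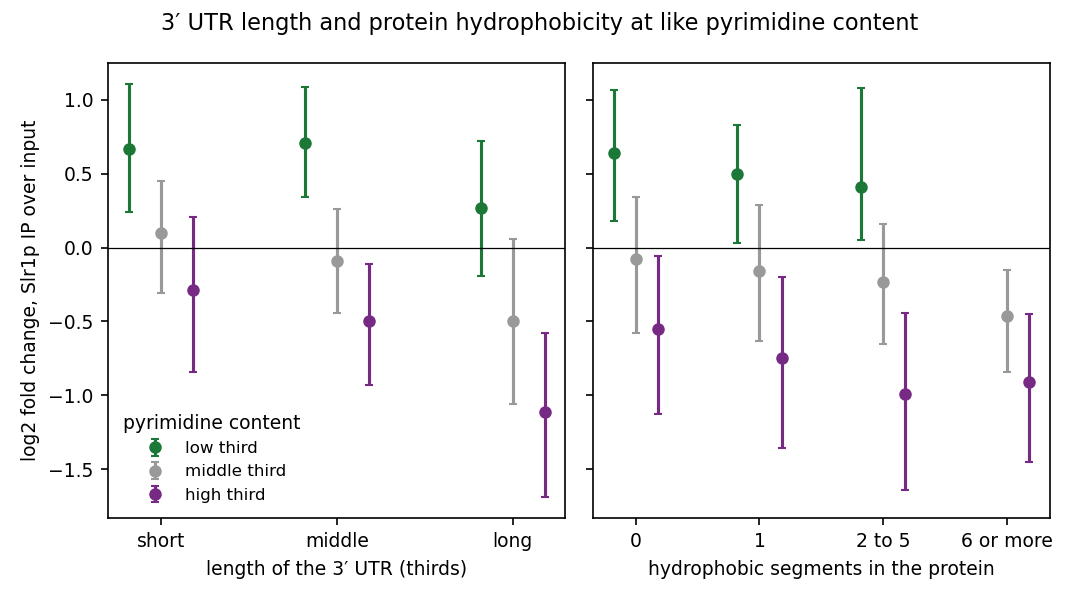
Median log2 fold change of Slr1p immunoprecipitation over input (points) and the middle 50% of genes (bars) for mRNAs split by 3′ UTR length (left) and by the number of hydrophobic segments in the protein (right), within 3 equal groups by pyrimidine content. In each composition group the long-UTR mRNAs have the lowest median, down to -1.11, and sets of fewer than 20 mRNAs are not drawn.

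Nuclear genes of the respiratory chain were mostly lower. Of 43 genes 23 (53.5%) were lower and 10 higher, with a median of -0.34. The mRNA of qcr1, a core subunit of complex III, stood at 1138 and 912 CPM in input and 130 and 125 CPM in the Slr1p libraries (-3.01, SE 0.16, edgeR adjusted p = 5.03e-10). The ATP synthase genes atp17 (-2.65) and atp2 (-1.64), for the catalytic beta subunit, also fell. In the same complex III, qcr6 rose from 170 and 218 CPM to 551 and 539 CPM (1.49). With the trends removed the list's median was 0.13, with 17 higher and 14 lower. The IgG library had a median of -1.35 for this list over the same input. Mitochondrial ribosomal proteins had 15 higher and 15 lower of 39 (38.5% each, beside 35.0% and 34.2% of all genes). In this list mrpl27 (-4.07) and mrpl20 (-3.5) were far below the rest. Its median was -0.02 as measured, -0.06 with the trends removed and 0.04 without Slr1p replicate 2. Without Slr1p replicate 1 it had 9 higher genes.

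Proteasome subunits were more often lower, with 18 of 33 lower (54.5%), 8 higher and a median of -0.31 (-0.26 with the trends removed, with 19 lower and 9 higher). The ATPase subunits of the base went both ways: rpt5 fell from 141 and 150 CPM to 60.5 and 55.4 CPM (-1.33) and rpt2 rose from 235 and 239 CPM to 427 and 428 CPM (0.85). Among the ubiquitin receptors, rpn1302 rose by 1.71 and its paralog rpn1301 fell by 1.20. In the IgG library over the same input, the proteasome list had a median of -1.24 and the core histone list one of -2.22. Core histone genes were lower in all 11 cases, from -0.43 for hta1 to -1.81 for hta2, with a median of -0.79. With the trends removed that median was -0.22, with 7 lower and 1 higher, and 7 were called lower without Slr1p replicate 1.

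Regulators of the cell cycle were lower. Of 33 genes 20 (60.6%) were lower and 6 higher, with a median of -0.58 (-0.18 with the trends removed, with 13 lower and 12 higher). The phosphatase gene clp1, which reverses the phosphorylation of mitotic targets, stood at 15.7 and 16.4 CPM in input, 1.83 and 1.66 CPM in the Slr1p libraries and 37.3 CPM in IgG (-3.2, SE 0.16, edgeR adjusted p = 2.45e-10). The cyclin-dependent kinase gene cdc2 fell from 125 and 99.7 CPM to 30.6 and 29.8 CPM (-1.89). Genes on both sides of its control were lower, among them the inhibitory kinases wee1 (-1.48) and mik1 (-1.49), the activating phosphatase cdc25 (-0.95), and cdr2 (-2.48), an inhibitor of Wee1. The higher genes were 1 without Slr1p replicate 1 and 3 without Slr1p replicate 2.

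Cytoskeletal genes were called each way about as often as genes in general. Of 32 genes 11 (34.4%) were higher and 12 (37.5%) lower, close to the 35.0% and 34.2% of all genes. The median was -0.16 as measured and -0.17 with the trends removed, when 12 were higher and 14 lower. At the high end were the type II myosins myp2 (1.92) and myo2 (1.77) and the formin cdc12 (1.34). Actin and tubulin were lower, as was the formin for3 (-1.04): act1 went from 4862 and 3917 CPM to 1353 and 1403 CPM (-1.67, SE 0.21), and the alpha-tubulin genes atb2 and nda2 stood at -1.3 and -1.0. In the IgG library myp2 was at 287 CPM, against 11.2 and 20.2 CPM in input and 58.6 and 60.4 CPM in the Slr1p libraries.

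In the nuclear pore list the coiled-coil proteins of the basket, nup211 (2.90) and alm1 (2.37), stood far above the other 29 genes, of which the next was nup132 at 0.71. The membrane-embedded cut11, which anchors the spindle pole body, fell from 45.4 and 45.6 CPM to 6.28 and 5.22 CPM (-2.98). In all 8 of 31 genes (25.8%) were higher and 13 (41.9%) lower, beside 35.0% and 34.2% of all genes. The median was -0.07 as measured and 0.03 without input replicate 2. With the trends removed it was 0.04, with 13 higher and 9 lower. Without either Slr1p library 4 were higher, and 8 were lower without Slr1p replicate 2.

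Factors of mRNA decay went both ways. Of 35 genes 15 (42.9%) were higher and 11 (31.4%) lower, beside 35.0% and 34.2% of all genes. The median was 0.23 as measured and 0.08 with the trends removed, when 15 were higher and 11 lower. The decapping activators lsm1 (1.53) and lsm7 (1.43) and the nonsense-mediated decay gene upf3 (1.21) rose. The DEAD-box helicase gene ste13, the homolog of budding yeast Dhh1, fell from 396 and 391 CPM to 90.4 and 74.6 CPM (-2.25, SE 0.13, edgeR adjusted p = 1.18e-09). Other low members, named after their values had been seen, were edc3 (-2.29), rcd1 (-2.08), caf1 (-1.31) and the decapping enzyme dcp2 (-1.03). Within the Lsm ring lsm2 fell by 2.41.

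Components of TOR signalling changed little. Of 25 genes 5 were higher and 7 lower, below the background shares, with a median of -0.01. The kinase genes tor1 and tor2 rose by 0.73 and 0.61, and sck2, for an S6 kinase relative, fell from 34.0 and 37.5 CPM to 13.6 and 14.1 CPM (-1.37), with 100.6 CPM in IgG. The GTPase gene gtr2 fell by 1.09. With the trends removed 13 were higher and 5 lower, with a median of 0.23, and without input replicate 2 the higher genes were 8 with a median of 0.07.

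Among the other lists, amino acid synthesis had 10 higher and 26 lower of 60 (median -0.16), glycolysis 3 and 7 of 19 (-0.16), chaperones 7 and 11 of 28 (0.17), stress and antioxidant genes 5 and 11 of 27 (-0.23), cell wall enzymes 4 and 11 of 22 (-0.34) and membrane transporters 4 and 14 of 24 (-0.44). With the trends removed the medians were 0.13, -0.12, -0.02, 0.33, 0.04 and 0.02, beside 0.12 for all genes. The higher and lower genes were then 25 and 16 for amino acid synthesis, 5 and 6 for glycolysis and 8 and 10 for chaperones. They were 17 and 5 for stress genes, 9 and 8 for cell wall enzymes and 9 and 8 for membrane transporters. Only glycolysis kept its sign, but cell wall enzymes and membrane transporters stayed below the median of all genes, as they were when measured. The glutamine synthetase gene gln1, a member of the first, rose from 310 and 332 CPM to 1052 and 1199 CPM (1.81). The hexokinases moved apart, with hxk2 from 820 and 992 CPM to 2056 and 2295 CPM (1.26) and hxk1 from 704 and 608 CPM to 270 and 277 CPM (-1.26). The peroxiredoxin gene tpx1 rose by 1.37 and the proton pump gene pma1 from 2824 and 2858 CPM to 5101 and 5739 CPM (0.93), a call lost without Slr1p replicate 2 (0.84, edgeR adjusted p = 0.0605). Amino acid synthesis had 6 higher genes without either Slr1p library, and chaperones had 3. Glycolysis had 4 lower genes without either and 1 higher without Slr1p replicate 2. Without Slr1p replicate 1 there were 7 lower stress genes and 9 lower transporters, and without replicate 2 there were 3 and 2 higher ones. Without input replicate 2 there were 12 higher chaperone and 8 higher cell wall genes.

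Hexose transporters had 1 higher and 2 lower of 7 genes with a median of -0.27. With the trends removed the median was 0.53, with 5 higher and 0 lower, so its sign depends on that removal. Leaving out each library in turn kept the median between -0.34 and -0.15. Ubiquitin and ubiquitin-like genes had 5 higher and 1 lower of 8, led by ned8 (1.71), with 3 higher without either Slr1p library. Their median of 0.60 was 0.18 with the trends removed, when 3 were higher and 2 lower. Meiosis and sporulation genes had 37 higher and 40 lower of 133, between mug163 at -4.63 and spo2 at 2.41. Their median was -0.01, also with the trends removed, and it took either sign among the fits that left out a library. Tf2 retrotransposons had 2 higher and 1 lower of 8, with 1 higher without Slr1p replicate 2 and 0 lower without input replicate 2. Their median was 0.35 as measured and -0.63 with the trends removed, when 1 was higher and 2 were lower, so its sign depends on that removal. Fitted without the IgG library, only 4 of the 8 passed the filter on low counts, again with 2 higher and 1 lower and with a median of 0.51. The rest passed it only with IgG included. Their copies are near-identical, so their counts are uncertain.

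**Figure D5:**
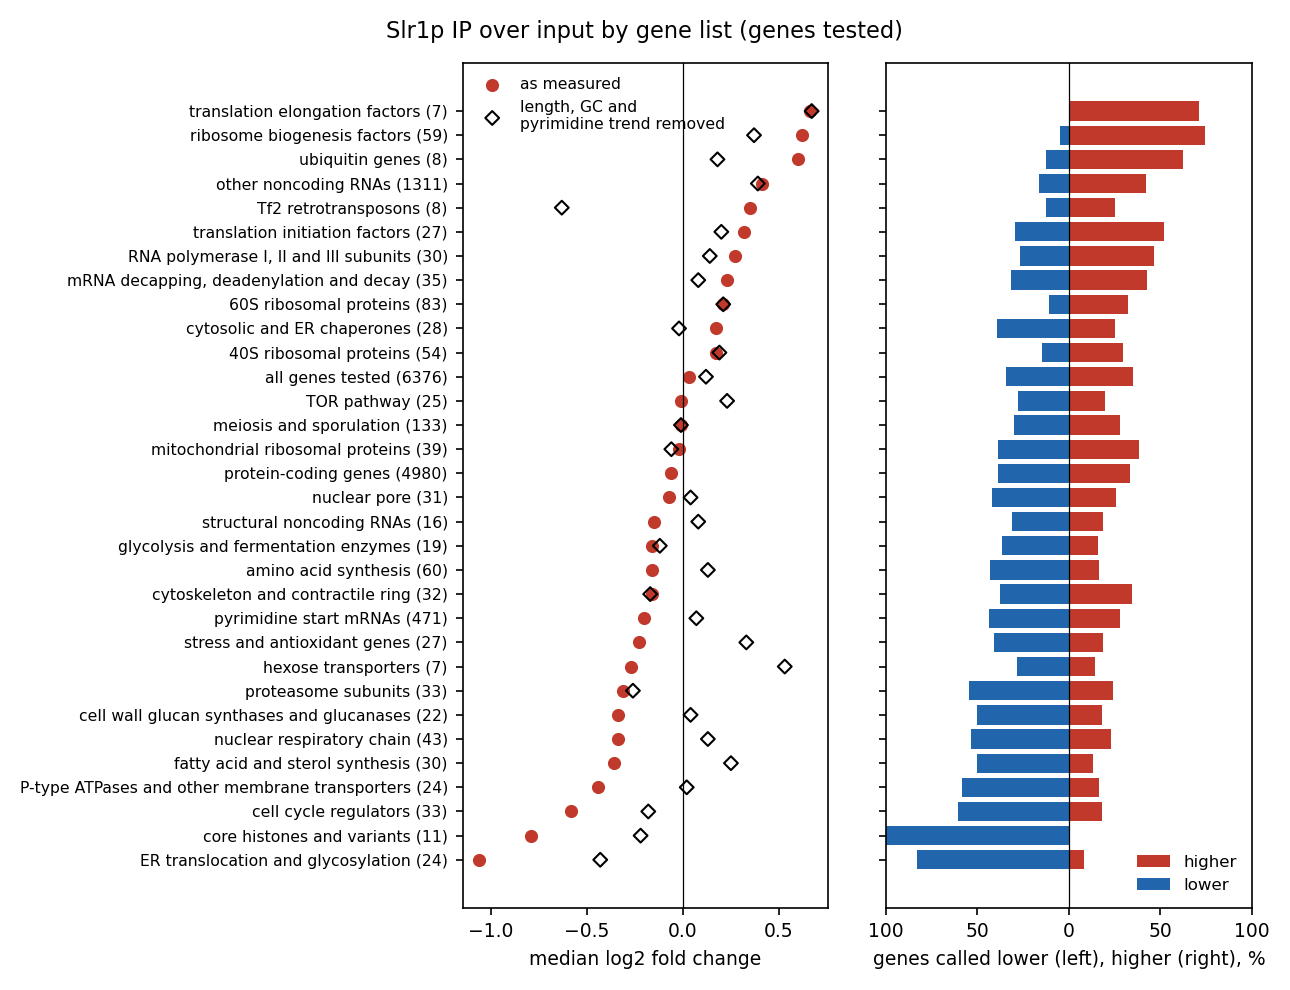
Left, median log2 fold change of the gene lists as measured (filled) and with the trends with length, GC and pyrimidine content removed (open). The lists of La and La-related proteins and of mitochondrially encoded genes are not drawn. Right, the percentage of each list called lower (to the left) and higher (to the right), with the number of genes tested in parentheses; ribosome biogenesis factors have 74.6% higher and ER genes 83.3% lower, beside 35.0% and 34.2% of all genes.

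Noncoding RNAs were more often higher than mRNAs. Of 1311 noncoding RNAs outside the structural classes, 555 (42.3%) were higher and 213 (16.2%) lower, with a median of 0.41 (0.39 with the trends removed). Leaving out each library in turn kept the median between 0.32 and 0.46. The largest rise of at least 10 CPM was prl62, a polyadenylated RNA, from 2.19 and 3.22 CPM to 20.3 and 18 CPM (2.82, SE 0.18, edgeR adjusted p = 2.11e-09), with 51.4 CPM in IgG. The next were SPNCRNA.1371 (2.56) and SPNCRNA.779 (2.26). The most abundant, prl53, stood at 5437 and 5978 CPM in input and 5357 and 5946 CPM in the Slr1p libraries (-0.01). Protein-coding genes that an antisense gene covers over at least 50% of their length had a median of 0.20, against -0.14 for those without an overlapping antisense gene.

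The largest falls among noncoding RNAs with a mean of at least 10 CPM were SPNCRNA.742, from 55 and 70.7 CPM to 2.91 and 2.34 CPM (-4.58, SE 0.17), SPNCRNA.910 (-3.92) and SPNCRNA.1124 (-3.83). All 3 are annotated as possible alternative UTRs of neighbouring genes. Among RNAs of any abundance, the largest fall was SPNCRNA.106, from 13.1 and 7.82 CPM to 0.457 and 0.341 CPM (-4.69, SE 0.29). The largest fitted rise was SPNCRNA.93 (4.53), but its input levels were 0 and 0.0153 CPM, so this value depends on the prior count of the fit and is no bound. Structural RNAs had 3 higher and 5 lower of 16, with 1 higher without Slr1p replicate 2. Their median was -0.15 as measured and 0.08 with the trends removed, when 4 were higher and 6 lower. In this list the U17 snoRNA snR30 stood at 40.3 and 37.6 CPM in input and 22.7 and 33.8 CPM in the Slr1p libraries (-0.46), a call lost without Slr1p replicate 1, and it was at 2167 CPM in IgG. The mitochondrially encoded cox1 stood between 5.55 and 7.56 CPM in these 4 libraries and was not called (-0.07, edgeR adjusted p = 0.820).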

How the data were processed

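Read counts per gene from 5 RNA-immunoprecipitation sequencing libraries (50-base paired reads, directional kit, per the labels) were analysed as the authors deposited them: whole-number counts, neither normalized nor filtered. STAR 2.6.0c (alignment software), HTSeq 0.6.1p2 (a read counter), Trim Galore, bcl2fastq 2.20 and FastQC 0.11.5 appear in the submitters' processing notes. Neither the build and annotation nor the strand option and handling of multi-mapping reads is given in the sources used here, so near-identical copies and overlapping antisense genes are uncertain. Composition and sequences come from RefSeq assembly ASM294v3, to which 6542 of 6727 gene identifiers matched by name.

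Libraries were grouped by title. The IgG library entered the fit as a group of its own but adds no degrees of freedom. The filter on low counts (edgeR's filterByExpr) was applied with the IgG library included and removed 351 genes. In the fit without IgG 6307 genes were tested. Counts were TMM-scaled and fitted with edgeR 4.0.16 (quasi-likelihood test, R 4.3.3), with Benjamini-Hochberg adjustment over all 6376 genes and a threshold of 0.05. The fit had 2 residual degrees of freedom and a biological coefficient of variation of 0.101. It was first tested on simulated data. A fold change is a change in share of a library. The members and gene lists were chosen with earlier results of these data known.

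The genes named by rule were the 10 largest called rises and falls among protein-coding genes (3 each among noncoding RNAs) with a mean of at least 10 CPM and groups that did not overlap, the largest called rise and fall and the most abundant member of each list, and slr1; other members were named after their values were seen. Alternatives were DESeq2 1.42.0, other scalings and filters, a fit without IgG, a replicate block and leaving out each library. Others were removal of trends with length and GC (mgcv 1.9.3) and the same with pyrimidine content (added after the data were seen). Same-numbered libraries did not deviate together (r = -0.0647 across 6376 genes), so numbers were not taken as pairs. Figures were drawn with matplotlib 3.10.9.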

Additional observations from a re-analysis of the deposited data

Results flagged for a closer look

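Some RNAs were abundant in the IgG library alone, which the comparison of Slr1p with input did not use. The mitochondrially encoded cox1 stood at 20740 CPM in IgG against at most 7.56 CPM in the other 4 libraries. The same was seen for cox2 (11710 CPM against at most 3.40 CPM), cob (10620 CPM against 3.37 CPM) and urf_a (1154 CPM against 0.583 CPM). The signal recognition particle RNA srp7 stood at 5808 CPM against 8.71 CPM, and SPNCRNA.242 at 217 CPM against 1.72 CPM. There was 1 IgG library, so these values have no replicate.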

How the results depend on the processing

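Limits: with 2 libraries a group the spread rests on few degrees of freedom, and extraction method and antibody step cannot be told apart from Slr1p binding. The single IgG library was shallower than the others and was not tested. The counts of higher and lower genes were 2184 and 2221 with RLE scaling, 2029 and 1997 with library totals alone, 2050 and 2127 with DESeq2, and 1734 and 1716 of 4656 genes with a filter at 10 CPM, which left no member of the mitochondrially encoded and Tf2 lists. Leaving out each library gave 1651 to 2468 higher and 1743 to 2372 lower genes, and for changes of 1 or more 694 to 987 higher and 985 to 1134 lower. Removing the length, GC and pyrimidine trends left 510 higher and 664 lower genes with changes of 1 or more. By construction this takes out whatever varied with composition. Under it rpb10 (0.05), ght8 (0.50), ecm33 (0.04), sod1 (0.62), fkh1 (0.69), cdc13 (0.03), cox1 (0.56) and prl53 (0.92) turned positive and ubi3 turned negative (-0.43), and the cause was not tested. With the replicate number as a block there were 2126 higher and 2081 lower genes, and ght8 and ubi3 lost their call (edgeR adjusted p = 0.0932 and 0.135).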

Other observations

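A few kinases outside the lists were low together with their partners or paralogs, and they were chosen after their values were seen. The mRNAs of 2 cyclins that partner the kinase Pef1 were low beside pef1 itself. The mRNA of psl1 stood at 21.3 and 22.4 CPM in input and at 1.8 and 1.64 CPM in the Slr1p libraries (log2 fold change -3.66, SE 0.17, edgeR adjusted p = 9.47e-11), with 13.5 CPM in IgG. That of clg1 stood at 150 and 156 CPM in input and 18.3 and 17.8 CPM in the Slr1p libraries (-3.08, SE 0.13), whereas IgG had 334 CPM. The other cyclin, pas1, differed little, at 242 and 221 CPM against 187 and 190 CPM (-0.30, edgeR adjusted p = 0.0394).

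The paralogous casein kinase 1 genes hhp1 and hhp2 fell by like amounts from different levels. The mRNA of hhp1 went from 391 and 316 CPM to 40 and 34.2 CPM (-3.25), and that of hhp2 from 51.6 and 40.1 CPM to 5.26 and 4.81 CPM (-3.19). In IgG they stood at 112 and 25.4 CPM.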
